A study of Rattus norvegicus with 15 samples.

Results

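Ndfip1, Ndfip2 and Trim2 are 3 genes of the ubiquitin system whose transcripts were measured in the enamel organ, the enamel-forming epithelium of the lower incisor of the rat, at 3 stages of enamel formation. They were found by accession, as the probes whose identifier is a RefSeq transcript of one of the 3 rat genes: A_44_P166216 for Ndfip1 (NM_001013059), A_44_P1047638 for Ndfip2 (NM_001108390) and A_44_P761041 for Trim2 (NM_001108552). The array thus held 1 probe per gene, 3 of its 38321 non-control probes, and the 3 genes were among the 38 that could be named on it. The stage levels of these genes in the same data were known when the genes were chosen, so every stage level and difference below is a description and carries no p-value.

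The tissue came from 4-week-old Wistar Hannover rats, 5 rats per the series design, and no treatment or genotype was given. The 3 groups are the cervical loop, which is the growing end of the tooth with the progenitors of the enamel-forming ameloblasts, the secretory stage, in which ameloblasts lay down enamel matrix, and the maturation stage, in which matrix is removed and mineral added. Each group had 5 RNA samples, each hybridized to its own one-colour array. The submitters numbered them as biological replicates, and these numbers are used below. With 5 rats, samples of different stages may come from the same rat, so that the arrays may not be independent. The SEs and intervals below take no account of this, except where a block by replicate number is named.

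Ubiquitin is attached to proteins by ligases, which choose the proteins to be degraded or moved within the cell. Ndfip1 and Ndfip2 are not ligases themselves. They encode related membrane proteins of the Golgi and endosomes that carry short proline-rich motifs, through which they bind ligases of the Nedd4 family, such as Nedd4, Nedd4-2 and Itch, activate them and bring them to membrane substrates; the metal transporter DMT1 is a known substrate of this kind. Trim2 encodes a ligase of another family, with a RING domain, and is best known from neurons, where neurofilament light chain is a substrate. Of a list of 40 other genes of the pathway (among them Nedd4, Itch, Wwp1, the conjugating enzymes of the Ube2d group and Slc11a2, which encodes DMT1), 0 were named on this array, so that neither the ligases that Ndfip1 and Ndfip2 bind nor their substrates could be followed here. Of 29 markers of enamel organ and other cell types, 2 were named, Map2 and Dlg4, both known from nerve cells. The tissue labels could therefore not be checked against ameloblast markers, and in these bulk samples more cells of a type and more RNA per cell cannot be told apart.

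RefSeq start windows of the 3 genes are shown because the genes were all higher in maturation than in the cervical loop, so that their starts can be set side by side. Each runs from 250 bases before to 50 bases after a transcript start on the build GRCr8, 5′ to 3′ on the gene's strand, at chr18:30516775-30517074 (plus strand) for Ndfip1, chr15:88446682-88446981 (plus) for Ndfip2 and chr2:171862395-171862694 (minus) for Trim2. The start of Ndfip2 lies 52.4 kb and that of Trim2 87.7 kb inside the gene's annotated span, so these are 1 of several starts, and the array does not show which start was used. Capitals mark matches on either strand to the GC box GGGCGG, the CCAAT box CCAAT, the TATA box TATAAA or the E-box CACGTG.
Ndfip1: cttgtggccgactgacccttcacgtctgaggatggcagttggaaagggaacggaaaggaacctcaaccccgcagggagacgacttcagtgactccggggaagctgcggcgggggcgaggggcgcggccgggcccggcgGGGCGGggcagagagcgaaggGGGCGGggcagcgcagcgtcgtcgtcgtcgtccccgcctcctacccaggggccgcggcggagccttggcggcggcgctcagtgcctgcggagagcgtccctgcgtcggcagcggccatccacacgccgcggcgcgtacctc
Ndfip2: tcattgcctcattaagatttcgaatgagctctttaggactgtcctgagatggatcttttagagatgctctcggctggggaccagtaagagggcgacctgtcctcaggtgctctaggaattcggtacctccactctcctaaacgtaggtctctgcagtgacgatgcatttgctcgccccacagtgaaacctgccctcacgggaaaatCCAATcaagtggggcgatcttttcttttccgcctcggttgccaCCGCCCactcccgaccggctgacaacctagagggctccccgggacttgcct
Trim2: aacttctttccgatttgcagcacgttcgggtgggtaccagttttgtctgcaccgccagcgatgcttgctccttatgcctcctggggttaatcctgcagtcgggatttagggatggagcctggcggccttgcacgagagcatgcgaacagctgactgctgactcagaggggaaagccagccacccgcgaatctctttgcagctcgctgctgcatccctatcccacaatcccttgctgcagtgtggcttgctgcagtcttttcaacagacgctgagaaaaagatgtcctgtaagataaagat

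The 3 windows differed in composition. The Ndfip1 window had a GC content of 73.3% with 40 CpG dinucleotides, more CpGs than 96.8% of the 33469 rat windows of the same length. Ndfip2 had 54.7% with 15 CpGs and Trim2 54.0% with 13, against medians of 51.7% and 7 over all windows. Ndfip1 held 2 GC boxes, starting 112 and 91 bases before the start, and Ndfip2 held 1 GC box and 1 CCAAT box, whose first base lay 44 bases before the start. GC boxes occurred in 33.1% of all windows and CCAAT boxes in 37.5%. No match to the 4 motifs lay in the Trim2 window, and no TATA box (14.2% of all windows) or E-box (6.42%) lay in any of the 3. No motif was shared by all 3 windows.

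All 3 probes were bright. Each was printed as 10 spots, and all 10 were well above background on each of the 15 arrays, so that the filter on dim probes did not decide their inclusion. No spot of theirs was saturated. The coefficient of variation among the spots of an array was 1.28% to 7.46% for Ndfip1, 3.33% to 8.39% for Ndfip2 and 5.09% to 11.3% for Trim2. These spots repeat 1 hybridization and are not replicates. Between 8 and 10 of them entered the mean of an array once outlier spots were left out. The spread between arrays of a stage was 3.46 to 12.5 times the standard error that 10 spots alone would give, so that spot error was a small part of it.

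Levels are given as the log2 processed signal from which the array's own 75th percentile was subtracted, which puts the arrays on a common scale; 1 unit is a 2-fold difference. Levels of different probes cannot be set against each other, because probes bind with different strength, so each gene is compared with itself across stages. Of 28863 features tested across the array, 58.1% differed between secretory stage and cervical loop at an adjusted p under 0.05 (limma), 59.5% between maturation and secretory stage and 63.2% between maturation and cervical loop. At these shares a call for a single gene is common, and the text below reads sizes and overlaps.

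**Figure D1:**
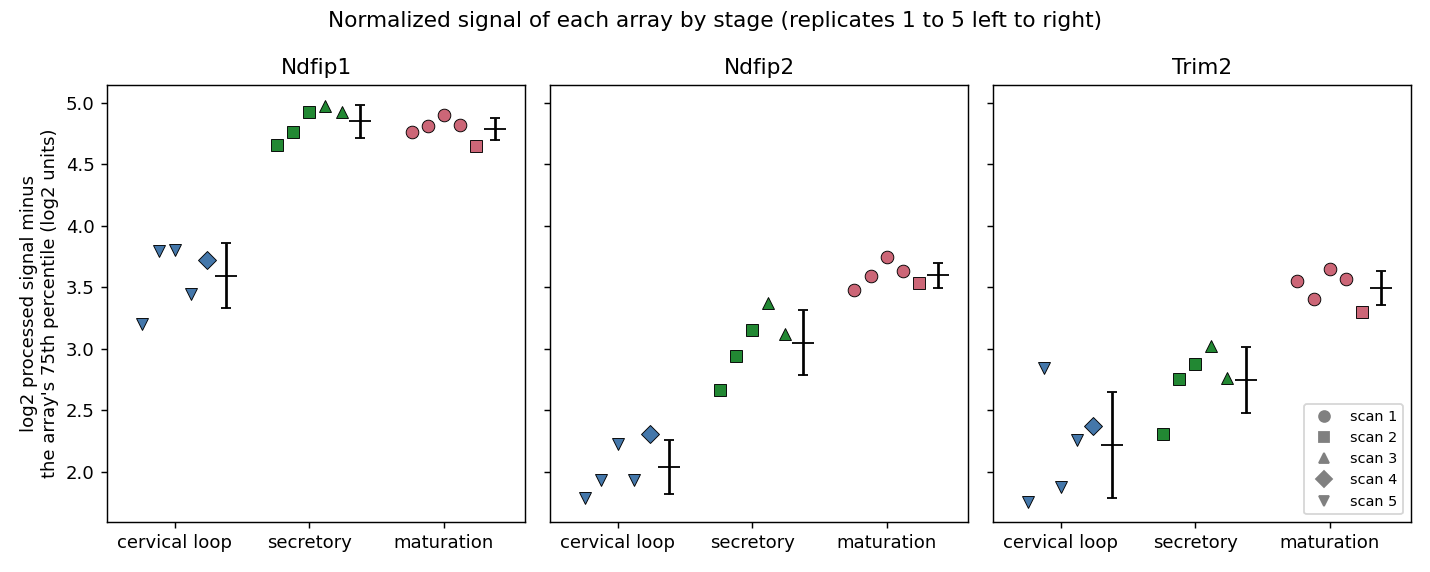
Normalized signal (log2, relative to the 75th percentile of the array) of Ndfip1, Ndfip2 and Trim2 on each of the 15 arrays, by stage, with replicates 1 to 5 from left to right, the scan shown by the marker and the mean ± SD (n = 5) in black. Ndfip1 is near 4.8 in both later stages, while Ndfip2 and Trim2 stand higher in maturation than in the secretory stage; levels are to be read within a panel.

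Ndfip1, the first of the adaptors, was lowest in the cervical loop. Its level there was 3.20, 3.80, 3.81, 3.45 and 3.72 in replicates 1 to 5, with a mean of 3.59 ± 0.27 (SD, n = 5). In the secretory stage it was 4.66, 4.76, 4.93, 4.98 and 4.93, a mean of 4.85 ± 0.14 (SD, n = 5), and in maturation 4.76, 4.81, 4.90, 4.82 and 4.65, a mean of 4.79 ± 0.09 (SD, n = 5). Every secretory and every maturation array lay above every cervical loop array, by at least 0.85 in both cases, whereas the secretory and maturation arrays overlapped over nearly their whole range. The difference was 1.26 (SE 0.13), or 2.39-fold, between secretory stage and cervical loop and 1.20 (SE 0.13), or 2.29-fold, between maturation and cervical loop.

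Between the 2 later stages Ndfip1 differed by -0.06 (SE 0.13), with a 95% interval of -0.34 to 0.22. This interval leaves room for a fall of up to 0.34 or a rise of up to 0.22. The sign of the estimate turned with the scaling and the background correction. It was 0.16 with median scaling, 0.38 without scaling and 0.0058 with normexp background correction, and -0.23 with quantile normalization. The median of all features in this comparison was -0.12, and 47.2% of features had a larger difference than Ndfip1. The level of Ndfip1 therefore changed mainly at the first step, from cervical loop to secretory stage, under each of these settings; in the unscaled signals that step was 0.81.

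Ndfip2, the other adaptor, differed between all 3 stages and was in order cervical loop, secretory, maturation. Its level was 1.78, 1.93, 2.23, 1.93 and 2.30 in cervical loop replicates 1 to 5 (mean 2.04 ± 0.22, SD, n = 5) and 2.67, 2.94, 3.15, 3.38 and 3.12 in the secretory replicates (mean 3.05 ± 0.27, SD, n = 5). In maturation it was 3.48, 3.60, 3.75, 3.64 and 3.54 (mean 3.60 ± 0.10, SD, n = 5). No array of one stage overlapped with those of another, but the gap between the highest secretory array (replicate 4) and the lowest maturation array (replicate 1) was 0.10, less than the SD within the secretory stage, against a gap of 0.36 at the step before. The differences were 1.01 (SE 0.14), or 2.02-fold, at the first step, 0.55 (SE 0.14), or 1.46-fold, at the second and 1.56 (SE 0.14), or 2.96-fold, over both steps.

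Trim2, the ligase, varied most of the 3 genes among the cervical loop arrays. In the cervical loop its level was 1.75, 2.84, 1.87, 2.26 and 2.37 in replicates 1 to 5, a mean of 2.22 ± 0.43 (SD, n = 5). In the secretory stage it was 2.30, 2.75, 2.88, 3.02 and 2.76, a mean of 2.74 ± 0.27, and in maturation 3.55, 3.40, 3.65, 3.57 and 3.30, a mean of 3.50 ± 0.14 (SD, n = 5 each). Cervical loop and secretory arrays overlapped: cervical loop replicate 2, the highest of its stage, stood above 3 of the 5 secretory arrays, and in 21 of the 25 pairs of arrays the secretory one was higher. All maturation arrays lay above all secretory arrays, by at least 0.28, and above all cervical loop arrays, by at least 0.46.

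The difference of Trim2 was 0.52 (SE 0.19), or 1.44-fold, from cervical loop to secretory stage, 0.75 (SE 0.19), or 1.68-fold, from there to maturation, and 1.28 (SE 0.19), or 2.42-fold, over both steps. The first of these kept its direction in the settings tried, from 0.083 (SE 0.19) to 0.75 (median scaling) with stages from the tissue label. With stages from the sample titles, described below, it was 1.03. Its call was lost when cervical loop replicate 1 (difference 0.41), cervical loop replicate 3 (0.44), secretory replicate 3 (0.49) or secretory replicate 4 (0.45) was left out. The call was also lost when the fit held only the 2 stages compared, and without scaling between arrays, where the difference was 0.083.

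By count, all 3 genes were called higher in the secretory stage than in the cervical loop, where 21.4% of all features were. In maturation 2 of the 3, Ndfip2 and Trim2, were called higher than in the secretory stage (25.1% of all features), and all 3 were called higher than in the cervical loop (20.6% of all features). Arrays did not overlap for 2 of the 3 in the first comparison (14.8% of all features lay wholly higher in the secretory stage), for 2 of the 3 in the second (20.1%) and for all 3 in the third (14.3%). As the genes were chosen with these levels known, nothing is read from the counts. Among all features, 6.39% had a larger difference than Ndfip1 and 8.75% a larger one than Ndfip2 from cervical loop to secretory stage, and 18.4% had a larger one than Trim2. From secretory stage to maturation the shares above Ndfip2 and Trim2 were 21.3% and 15.3%. Over both steps they were 4.07% above Ndfip2, 5.78% above Trim2 and 6.44% above Ndfip1.

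**Figure D2:**
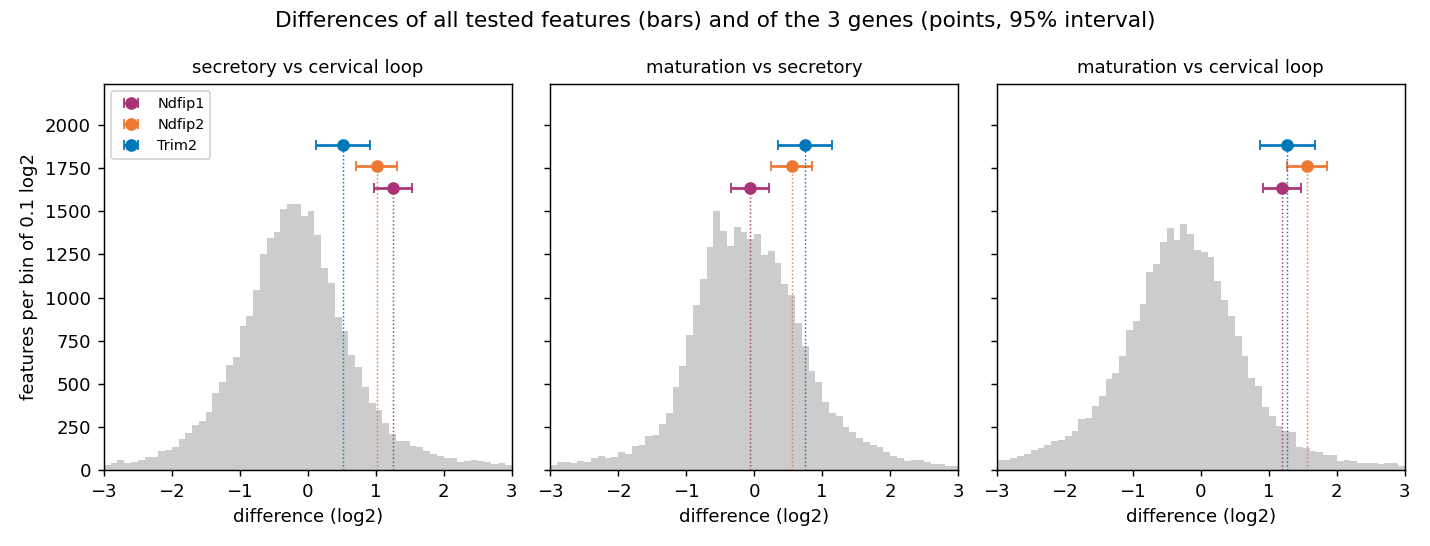
Differences between stages (log2) of all tested features as counts per bin of 0.1 (bars; the axis is limited to -3 to 3) and of Ndfip1, Ndfip2 and Trim2 (points with 95% intervals, placed above the bars). Ndfip1 lies in the right tail in both comparisons with the cervical loop and near the middle between maturation and secretory stage, where Ndfip2 and Trim2 lie to its right.

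Ratios between the genes on one array do not depend on how arrays were scaled, since scaling by a percentile adds the same amount to each gene. They were set relative to their cervical loop mean. The ratio of Ndfip2 to Ndfip1 was -0.24 ± 0.14 on the log2 scale in the secretory stage and 0.37 ± 0.06 in maturation (SD, n = 5 each). The cervical loop arrays ranged from -0.31 to 0.14 and overlapped with the secretory arrays (-0.43 to -0.04), while all maturation arrays (0.28 to 0.44) lay above both. The adaptors thus went apart between the later stages, by 0.61. Other scaling by a percentile, no scaling, the filters and the replicate block cannot change this gap. With stages from the tissue label, it was 0.57 with quantile normalization and 0.59 with normexp background correction. Within the only scan that held both stages it was 0.75, with maturation replicate 5 alone for its stage.

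The ratio of Trim2 to Ndfip1 was -0.73 ± 0.16 in the secretory stage and 0.08 ± 0.08 in maturation (SD, n = 5 each). All secretory arrays (-0.98 to -0.58) lay below all cervical loop arrays (-0.56 to 0.42) and below all maturation arrays (-0.04 to 0.17), but the distance from the lowest cervical loop array was small. Trim2 and Ndfip1 thus had nearly the same total difference from cervical loop to maturation, 1.28 and 1.20, with different shares of it at each step. The ratio of Trim2 to Ndfip2 was -0.49 ± 0.08 in the secretory stage and -0.29 ± 0.12 in maturation; the secretory arrays (-0.55 to -0.37) and the maturation arrays (-0.42 to -0.11) overlapped with each other and with the wide range of the cervical loop (-0.54 to 0.73). These contrasts were noticed in the data and were not tested.

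**Figure D3:**
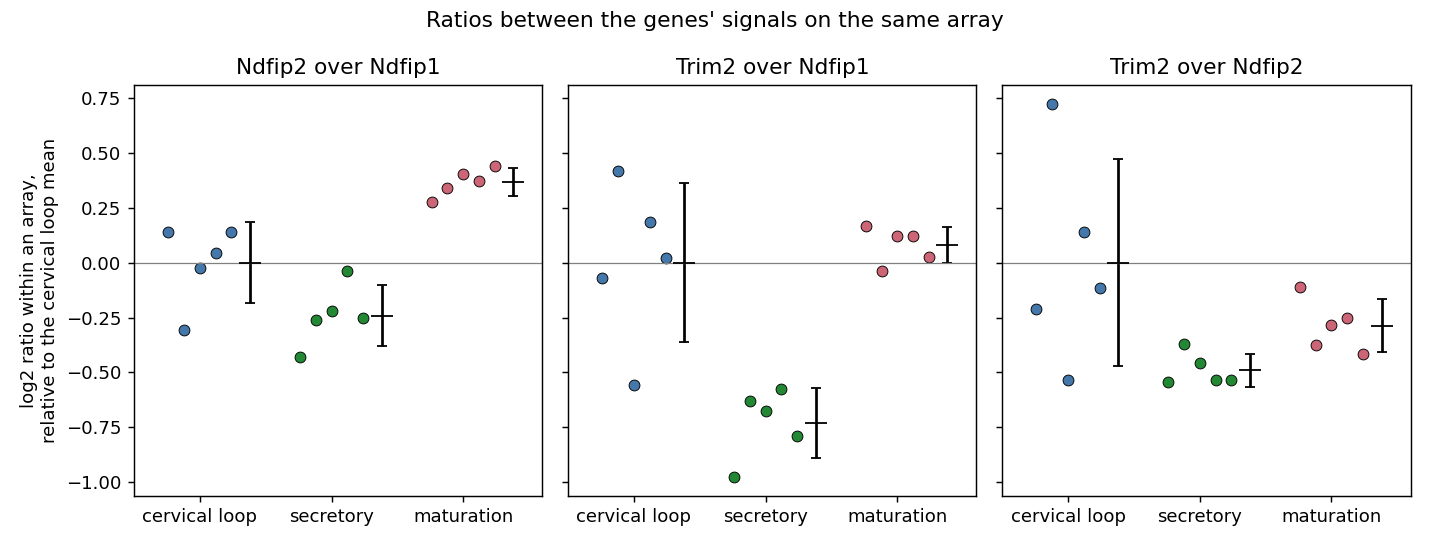
Log2 ratios of Ndfip2 to Ndfip1, Trim2 to Ndfip1 and Trim2 to Ndfip2 on each array, relative to the cervical loop mean of that ratio, with the mean ± SD (n = 5) in black. The ratio of Ndfip2 to Ndfip1 is higher on all 5 maturation arrays (0.28 to 0.44) than on any secretory array (-0.43 to -0.04).

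The signals as deposited, before scaling between arrays, show how much the first step rests on it. The 75th percentile of the arrays lay between 8.63 and 9.36 (log2) for the cervical loop, between 8.21 and 8.72 for the secretory stage and between 8.82 and 9.16 for maturation, so that most cervical loop arrays were brighter than the secretory arrays. The processed signal of Ndfip1 ranged from 4294 to 9197 over the cervical loop arrays, from 9016 to 11600 over the secretory arrays and from 12244 to 14406 over the maturation arrays. Cervical loop replicate 3, at 9197, was thus above secretory replicate 3, at 9016, before scaling. Ndfip2 went from 1511 to 3074 in the cervical loop, through 2629 to 3830, to 5034 to 6647 in maturation. Its cervical loop and secretory ranges thus overlapped before scaling. The first step of Ndfip2 was 0.57 (SE 0.22) without scaling, against 1.01 with it. For Trim2 the cervical loop (1578 to 3068) and secretory ranges (2089 to 3001) could not be told apart in unscaled signal, and maturation (5227 to 5979) was above both.

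The rank of a probe on its own array needs no scaling either. Ndfip1 was brighter than 92.3% to 94.3% of array features on the cervical loop arrays, than 95.9% to 96.5% on the secretory arrays and than 95.7% to 96.0% on the maturation arrays. Ndfip2 was brighter than 86.1% to 88.2%, 89.6% to 92.3% and 92.0% to 92.8%, and Trim2 than 86.2% to 90.9%, 88.1% to 91.1% and 91.5% to 92.3%. By rank, the secretory and maturation arrays of Ndfip2 overlapped, whereas those of Trim2 did not.

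The 3 genes ranked the secretory arrays alike, but not the cervical loop arrays. Cervical loop replicate 2 was the highest for Trim2 (2.84) but low for Ndfip2 (1.93). Cervical loop replicate 3 was the highest for Ndfip1 (3.81) but low for Trim2 (1.87). Replicate 1 was the lowest cervical loop array and the lowest secretory array for all 3 genes. Maturation replicate 5 was the lowest of its stage for Ndfip1 and Trim2, while for Ndfip2 that was replicate 1 (3.48). The 75th percentile of secretory replicate 1 was 8.72 and that of maturation replicate 5 was 9.16, in both cases the highest of the stage, while that of cervical loop replicate 1 was 8.87, the third highest of 5; the part of array brightness in these low values was not tested. No array stood apart by Dixon's criterion, the nearest being secretory replicate 1 for Trim2 (gap over range 0.62, limit 0.71).

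Stage and scan were partly joined. The cervical loop was scanned on a day of its own, and in both comparisons with it the stage cannot be told apart from the scan day. Scan 2 held maturation replicate 5 and secretory replicates 1 to 3. Within it, the difference between maturation and secretory stage was -0.13 for Ndfip1 (SE 0.25), 0.62 for Ndfip2 (SE 0.28) and 0.66 for Trim2 (SE 0.31), close to the differences over all arrays, with only 1 maturation array, which was assumed to vary like the secretory arrays. The calls of Ndfip2 and Trim2 were lost there, and also with the scan as a fixed block (SE 0.23 and 0.36), where fewer features passed in general. The fixed block gives the same differences, because only scan 2 held both stages. With the scan as a random block both calls were kept (differences 0.55 and 0.74).

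The direction between the 2 later stages rests on the labels. The sample titles exchange secretory and maturation for 8 of the 15 arrays, replicates 2 to 5 of both stages, and the tissue label was followed here, which the descriptions share. The arrays grouped by tissue label: correlations across features were 0.985 to 0.992 within the secretory and 0.989 to 0.995 within the maturation arrays, against 0.930 to 0.951 between them. With stages from the titles, which mixes both groups, the differences of Ndfip2 and Trim2 were -0.22 (SE 0.20) and -0.25 (SE 0.27).

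**Figure D4:**
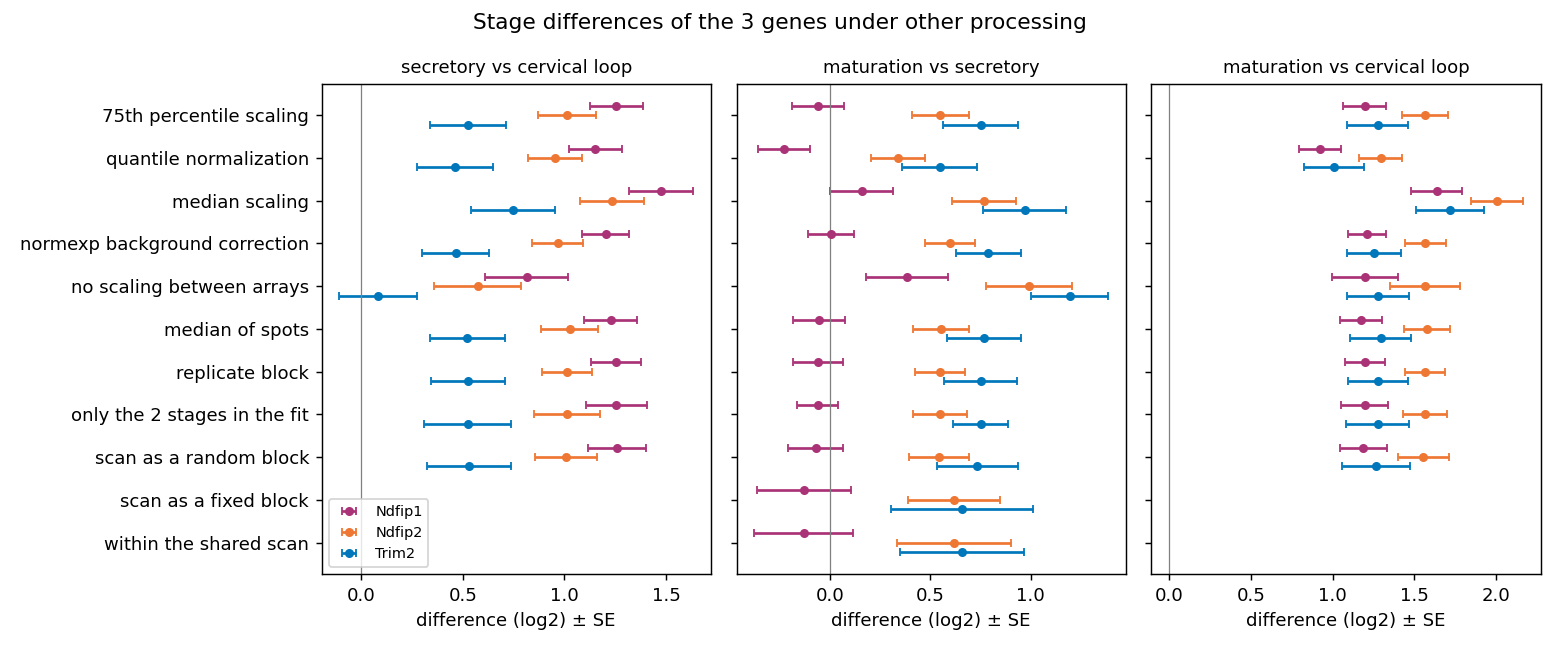
Stage differences (log2, with SE) of Ndfip1, Ndfip2 and Trim2 under the 75th percentile scaling used in the text and under 10 other settings, 2 of which exist only for maturation against secretory stage. The order of the 3 genes within a comparison is the same in each setting shown, while the distance from 0 shifts with the scaling. Stages from the sample titles are not shown. With them the order differed in all 3 comparisons, and maturation against secretory stage gave 0.10, -0.22 and -0.25 for Ndfip1, Ndfip2 and Trim2. The order could not change with median scaling, no scaling, the fit of 2 stages or the replicate block. These move the 3 genes alike or not at all. The scan as a fixed block and the shared scan give the same estimates. In the comparisons with the cervical loop, which was scanned on its own day, the random block cannot separate stage from scan day.

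The named genes most like each of the 3 were sought by the correlation of normalized signal over the 15 arrays, among the 36 other named genes tested. The 15 points fall into 3 stages, so that a high r mainly means the same order and spacing of stages. For Ndfip1 they were Cdh2, which encodes N-cadherin (r = 0.91), Ndfip2 (r = 0.91) and Nat1, an arylamine acetyltransferase gene (r = 0.88). For Ndfip2 they were Pld1, which encodes phospholipase D1 (r = 0.98), Cdh2 (r = 0.95) and Sdha, which encodes a subunit of succinate dehydrogenase (r = 0.94). For Trim2 they were Pld1 (r = 0.93), Nat1 (r = 0.91) and Ndfip2 (r = 0.88). Among all features, 4 of 28863 were more like Ndfip2 than Pld1 was, 56 were more like Trim2 than Pld1 was, and 192 were more like Ndfip1 than Cdh2 was.

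The courses behind these values differed in size. Pld1 went from -0.09 ± 0.36 through 1.52 ± 0.41 to 3.00 ± 0.06, and thus by about as much at each step, while Ndfip2 changed by 1.01 and 0.55. Cdh2 went from 1.19 ± 0.41 through 3.20 ± 0.36 to 3.77 ± 0.07, with most of its change at the first step. Nat1 went from -0.49 ± 0.27 through 0.04 ± 0.18 to 0.34 ± 0.15, a smaller change than that of any of the 3 ubiquitin genes over both steps, and Sdha from 3.99 ± 0.36 through 4.65 ± 0.25 to 5.06 ± 0.16 (SD, n = 5 throughout). The lowest r fell to Map2, which encodes a microtubule-associated protein of nerve cells, for each of the 3. Map2 was well above background on all 5 cervical loop arrays but on 0 secretory and 0 maturation arrays, so that its course was not measured over the stages and no likeness is given for it.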

How the data were processed

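One-colour arrays of 15 enamel organ samples were used. Per the file headers, Agilent Feature Extraction 11.0.1.1 read the images, and the deposited intensity of each spot is a linear, background-subtracted processed signal. The authors also deposited a table of log2 values for 38237 probes, which holds 0 of the 3 members' probes; its normalization is not stated in these sources. Control spots and spots marked uneven or as outliers were left out, spots of a probe averaged, and log2 signals centred on each array's 75th percentile. Features well above background (at least 50% of spots) on all 5 arrays of a stage were tested, the brightest probe standing for a gene, with limma 3.58.1 in R 4.3.3 over all 15 arrays and Benjamini-Hochberg adjustment; an array whose spots of a feature were all left out was dropped for that feature. Accessions were matched to RefSeq (GRCr8) for names. The script was tested on simulated data. Members, lists and tests were chosen with earlier results of these data known; named genes were the members and the 3 most and 1 least correlated named genes of each. Samples of the same replicate number in the titles deviated together (correlation over 0.1) in all 5 pairs of maturation and secretory arrays (0.11 to 0.29). They did so in 3 of the 10 pairs with the cervical loop. Pairs of different numbers, over all stages, ranged from -0.25 to 0.25, which overlaps with the first range. Of the 15 arrays, 9 had their best match in another stage at the same number. Pairing by number was thus not settled, and the block by number was an alternative throughout. Other alternatives were scaling, background, filter, spots, blocks, scan, titles and left-out arrays; the number of arrays limits the precision.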

Additional observations from a re-analysis of the deposited data

How the results depend on the processing

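Of 243 alternative values for the stage differences of Ndfip1, Ndfip2 and Trim2, 227 kept their direction and their side of the threshold. Many of the 243 could not change direction. Leaving out an array of the stage not compared keeps a difference as it was. So do the other filters, the fit of 2 stages and the replicate block, where only the call could move. Between maturation and secretory stage, Ndfip1 changed sign with median scaling (0.16), normexp correction (0.0058), no scaling (0.38, added after the data were seen) and stages from the titles (0.10). There, stages from the titles gave -0.22 for Ndfip2 and -0.25 for Trim2, and both lost their call with the scan as a fixed block or within the shared scan (0.62 and 0.66). From cervical loop to secretory stage, Trim2 lost its call without scaling (0.083) and with only those 2 stages in the fit (0.52); leaving out single arrays gave 0.41 to 0.68. The cause of these changes was not tested.

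Counts over all features moved by more than 1.5 times with stages from the titles (11598 in place of 18255 between maturation and cervical loop, and 0 in place of 17160 between maturation and secretory stage by limma, with 7184 at an unadjusted p under 0.05), with the scan as a fixed block (5832) and within the shared scan (3393). The share of higher calls was 36.8%, 42.2% and 32.5% in the 3 comparisons in order, 53.8%, 57.8% and 61.8% with median scaling, 13.4%, 77.8% and 31.3% without scaling, 56.9%, 30.8% and 36.7% with normexp correction, and 45.7% between maturation and cervical loop with quantile normalization (45.6% in the series table). The median of all features moved from -0.19, -0.12 and -0.28 to 0.03, 0.10 and 0.16 with median scaling and to -0.64, 0.32 and -0.27 without scaling. With the replicate block the differences stayed as they were, with SEs of 0.12 for Ndfip1 and Ndfip2 and 0.18 for Trim2, no call of the 3 genes changed, and 17135, 17559 and 18483 features passed. With the block in a fit of the 2 later stages only, a setting added after the data were seen, the SEs were 0.10, 0.11 and 0.13, no call of the 3 genes changed, and 19229 features passed. The 3 probes are not in the series table, and each gene has 1 probe, so these alternatives gave no value for them.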
